A study of Homo sapiens and Mus musculus with 25 samples.

Results

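The regions described here are stretches of the K562 genome that carry monomethylated lysine 4 of histone H3 (H3K4me1) in the authors' corrected peak lists, lie away from coding promoters, and overlap no corrected peak of the di- or trimethylated form. Their choice rests on 3 corrected lists, 1 per degree of methylation, that the authors computed from 4 Abcam antibodies as a correction for off-target binding (deposited notes). The regions were chosen by these measured lists. A region had to be a corrected H3K4me1 peak at least 500 bases and under 50 kb wide on chromosomes 1 to 22 and X. Both of its ends had to lie more than 5 kb from every transcription start site (TSS) of a protein-coding gene in GENCODE release 44. It also had to share 0 bases with the corrected H3K4me2 and H3K4me3 lists. Of 290042 corrected H3K4me1 peaks, 204978 had the width, 173114 of these were distal, and 96392 were H3K4me1-only by this rule, 55.7% of the distal peaks. The other distal peaks were 57517 that overlapped H3K4me2 but not H3K4me3, which serve as the comparison, and 19205 that overlapped H3K4me3.

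K562 is an established cell line from a chronic myeloid leukaemia with erythroid features. The data come from 1 condition, unperturbed cultured K562 cells, in which 17 antibodies against methylated H3K4 and 1 each against H3K9me3 and H3K27me3 were compared by internally calibrated ChIP-seq. In this assay, barcoded nucleosomes of known modification are spiked into nuclei so that the signal can be read as a density. The files give no read depth. The antibody is the unit of replication, the labels name no separate cultures, and p-values therefore measure the spread between antibodies on chromatin of this cell line. The series has 25 samples, of which 2 K562 inputs and 4 samples of mouse embryonic stem cells are not used here. The cell line was checked through the 7 H3K4me3 lists other than that of Abcam ab8580. A peak within 1 kb of the TSS was listed in 7 of 7 for the erythroid genes GATA1, TAL1, KLF1, HBG1, HBG2 and TFRC. Of the markers of other blood cells, PTPRC (CD45) had a peak in 7 of 7, CD3E and ITGAM in 1, and MS4A1 and CD14 in 0.

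H3K4me1 is placed at enhancers chiefly by the methyltransferases KMT2C and KMT2D, and it is classically used as a mark of enhancers in both their primed and their active state. Dimethylation is found at enhancers and promoters and trimethylation mainly at active promoters. A distal site with monomethylation alone is therefore often taken as a primed or weak enhancer, and other marks and open chromatin, not measured here, are needed to tell such states apart.

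The sequence at the centre of 1 region is shown, since it had the second-highest of the authors' values and its centre holds several of the motif letters searched. It was picked for these matches, as 4 of the 6 regions of highest value, the highest among them, held 0 matches in the same window. The line gives the central 300 bases of the plus strand of hg38, and a gene's name here stands for the nearest coding TSS. Capitals mark matches, on either strand, to the motif letters searched. GATA factors were represented by AGATAA, and the factors AP-1 and NF-E2 by TGACTCA and its reverse complement TGAGTCA. E-boxes, bound by proteins such as TAL1 or MYC, were represented by CAGCTG and, separately, by CACGTG. The KLF family was represented by CCACACCC, RUNX factors by TGTGGTT, ETS factors by CCGGAAGT and part of the site of CTCF by AGGGGGC.
IRF2BPL region, chr14:77044616-77044915: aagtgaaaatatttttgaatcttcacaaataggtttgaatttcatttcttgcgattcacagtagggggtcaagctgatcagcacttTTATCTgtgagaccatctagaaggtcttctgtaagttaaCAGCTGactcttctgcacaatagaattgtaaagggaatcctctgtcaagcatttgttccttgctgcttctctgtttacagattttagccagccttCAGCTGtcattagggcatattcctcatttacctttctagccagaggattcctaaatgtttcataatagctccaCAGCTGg

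The window held 1 GATA and 3 CAGCTG matches, and its GC content was 39.3%.

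The authors' value of a peak has no header, so what it measures is not stated, and it is read here as a modification density. It describes the regions within the list that chose them, with no test. The highest value, 58.8, belonged to a region of 4136 bases in an intron, at chr19:40821757-40825892, with its centre 16582 bases from the TSS of EGLN2, a prolyl hydroxylase of the oxygen-sensing pathway. The second, 55.4, was the IRF2BPL region at chr14:77040473-77049058, in an intron of a long non-coding RNA (lncRNA). It lay 41405 bases from the nearest corrected H3K4me2 peak, yet at least 50% of it was under a peak in 3 of 3 H3K4me2 lists, and in 1 of 6 H3K4me3 lists, that had no part in the choice. The third, 50.7, was the narrow CBFA2T3 region at chr16:88998990-88999555, 566 bases wide and intergenic. CBFA2T3 (ETO2) is a corepressor that works with TAL1 and GATA1 in blood precursors. In the independent lists this region was under a peak in 3 of 6 for H3K4me3 and 3 of 3 for H3K4me2, but in 1 of 4 for H3K4me1. Next came intronic regions nearest to ATG16L1, an autophagy gene (49.4, chr2:233240534-233243876), and SHTN1, a gene of axon outgrowth (47.2, chr10:116946702-116949699). The sixth was an intergenic region nearest to PPP1R3C, which targets protein phosphatase to glycogen (47.2, chr10:91607294-91614989). These 3 were each under a peak in 3 of 4 independent H3K4me1 lists and in 0 of 6 for H3K4me3. Of the 3 independent H3K4me2 lists, 3 covered the ATG16L1 region, 2 the SHTN1 region, 1 the PPP1R3C region and 2 the EGLN2 region. Among all H3K4me1-only regions, 0.109% were under a peak in 3 of 3, beside 0.256% of all distal peaks.

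The widest region spanned 49608 bases of an intron of FHIT, the gene at a well-known chromosomal fragile site (chr3:60224269-60273876, value 29.1). Other very wide regions spanned 48616 bases in an intron at PITPNB (chr22:27859477-27908092, value 18.9) and 47880 bases at the adhesion gene LIMS1 (chr2:108551913-108599792, value 29.1). These 3 lay at least 9328 bases from a corrected H3K4me2 peak and were under a peak in 3 or 4 of 4 independent H3K4me1 lists. Of the 3 independent H3K4me2 lists, 2 covered the FHIT region, 1 the PITPNB region and 2 the LIMS1 region. The LIMS1 region holds a coding TSS inside it, which the rule allows because it is on the ends. This was so for 111 H3K4me1-only regions, or 0.115%.

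As a class the regions were narrow and of moderate value. Their width had a median of 1255 bases (2750 for the distal peaks with H3K4me2), and 39.0% were under 1 kb wide (16.1%). Values ran from 0.233 to 58.8 with a median of 10.4 and a middle range of 8.92 to 12.4, close to the median of 10.9 for peaks with H3K4me2. Values of 20 or more were held by 3.17%, against 7.34% of the peaks with H3K4me2. The median distance to a coding TSS was 65398.5 bases against 55464, and 6.32% lay over 500 kb away. Together they covered 209.8 Mb, 8.00% of the 2623.64 Mb of distal sequence. The rule itself bears on these differences, since a wide peak has more bases with which to meet an H3K4me2 peak, and none was tested.

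Many of the regions lay beside H3K4me2. The gap to the nearest corrected H3K4me2 peak had a median of 2824.5 bases, with 26.3% of the regions within 1 kb and 65.3% within 5 kb. By contrast, 18.1% lay over 10 kb away and 2.24%, or 2160 regions, over 50 kb away. Regions just inside the thresholds differed little from peaks just outside. The 8067 regions with an H3K4me2 peak 1 to 200 bases away had a median width of 1117 bases and value of 9.42, and the 10062 excluded peaks that overlapped H3K4me2 by 1 to 200 bases had 1130.5 bases and 9.44. The median value was 9.68 for 5409 regions within 50 bases above the lower limit of width and 9.71 for 6292 otherwise eligible peaks within 50 bases below it. It was 11.2 for 804 regions whose nearer end lay within 500 bases beyond the limit of distance to a TSS and 11.1 for 842 peaks within 500 bases short of it.

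Counted by their centres, 44.03% of the regions were in introns of coding genes, 36.9% were intergenic and 15.1% were in lncRNA introns. Evenly spaced distal positions gave 39.2%, 41.5% and 15.3%. Coding exons held 0.980%, untranslated regions 1.196% and lncRNA exons 0.970%. A lncRNA TSS was within 1 kb of 3.08% of the regions and of 5.96% of the peaks with H3K4me2. Among those under 1 kb wide the 2 shares were 1.78% and 2.00%.

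The first comparison asked whether antibodies that had no part in the choice list the same regions. A region counted as under a peak when at least 50% of its bases were. For the H3K4me1 antibodies, the H3K4me1-only regions under a peak made up 91.4% for Active Motif 39635, 62.1% for Cell Signaling Technologies 5326 BF, 42.3% for EpiGentek A-4031-050 and 22.0% for Thermo Fisher 710795. The same shares over all 173114 distal peaks were 94.5%, 71.1%, 50.9% and 29.5%, so each list held a smaller share of the H3K4me1-only regions than of distal peaks as a whole. For the H3K4me2 antibodies, the shares were 86.4% for Cell Signaling Technologies 9725, 12.8% for Thermo Fisher 710796 and 0.129% for EMD Millipore 05-1338, beside 90.7%, 20% and 0.27% of all distal peaks. The name H3K4me1-only therefore holds for the corrected lists and not for every H3K4me2 antibody. The 9725 list covered 48.8% of all distal bases, more than 3 of the 4 independent H3K4me1 lists did.

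The 6 independent H3K4me3 lists covered few of these regions by the 50% rule, as they covered few distal peaks of any class. This count needs 50% of the bases, whereas 1 shared base with a corrected peak barred a region, so smaller overlaps go uncounted. Counted by bases, EMD Millipore 07-473 covered 5.97% of the H3K4me1-only regions' bases, beside 4.18% of all distal bases. EMD Millipore 07-473 covered 906 of them (0.940%, beside 1.32% of all distal peaks). EMD Millipore 05-745R covered 11 and Abclonal A2357 covered 8, beside 0.0451% and 0.0318% of all distal peaks. EpiGentek A-4033-050 covered 2, Thermo Fisher PA5-40086 covered 1 and Diagenode C15410003 covered 1, beside 0.0173%, 0.00924% and 0.0196%. At least 1 of the 6 lists covered 906 regions in all, the same number as 07-473 alone (0.940%), beside 1.32% of all distal peaks. That share was 2.10% for the distal peaks with H3K4me2 and 0.942% for those that overlap a corrected H3K4me3 peak, close to that of the H3K4me1-only regions.

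**Figure D1:**
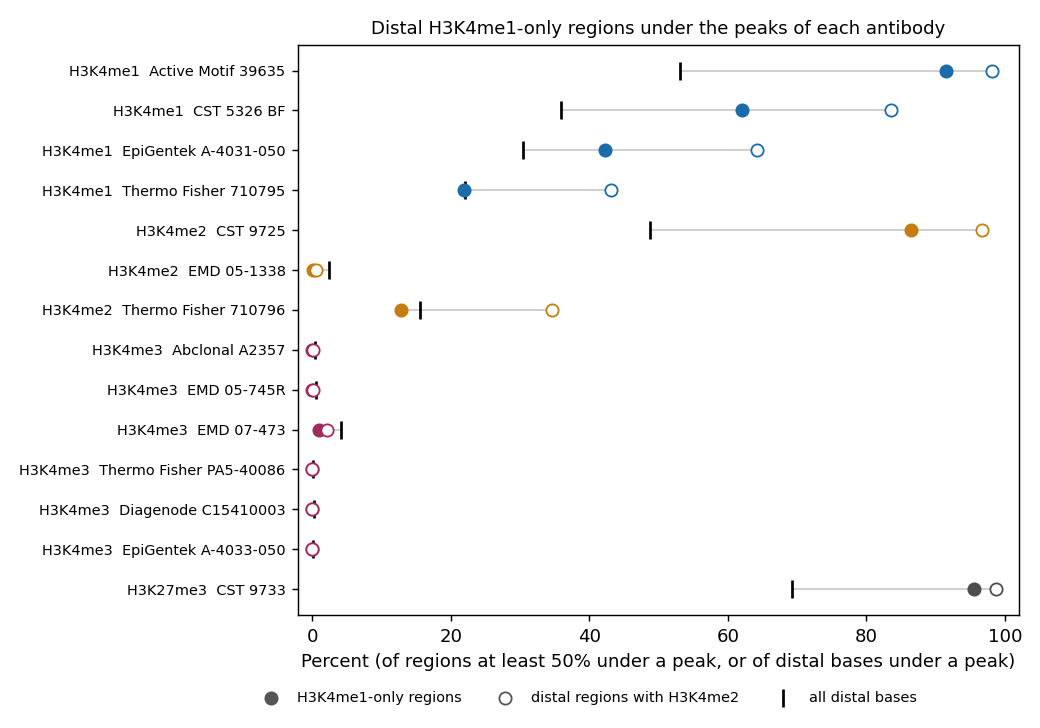
Percent of distal H3K4me1-only regions (filled) and of distal regions with H3K4me2 and no H3K4me3 (open) at least 50% under a peak of each antibody's list, with the percent of all distal bases under a peak (bar), 1 point per antibody. CST stands for Cell Signaling Technologies (H3K4me1, H3K4me2) or Cell Signaling Technology (H3K27me3). Each open point lies at or to the right of its filled one, and the 6 H3K4me3 lists sit near 0 throughout.

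The mean share was 54.4% ± 29.6 for H3K4me1 (SD, n = 4 antibodies), 33.1% ± 46.6 for H3K4me2 (n = 3) and 0.161% ± 0.382 for H3K4me3 (n = 6). H3K4me1 exceeded H3K4me3 by 54.3 percentage points (exact two-sided permutation p = 0.00952, the smallest that 4 against 6 can give, adjusted p = 0.0286 over 9 tests). The 2 groups of antibodies did not overlap, and over all distal peaks they did not either (29.5% to 94.5% against at most 1.32%). Since the regions were chosen as H3K4me1 peaks free of H3K4me3, this test cannot show a trait particular to them. H3K4me2 exceeded H3K4me3 by 33.0 points, which did not pass the adjusted threshold of 0.05 (exact permutation p = 0.0476, adjusted p = 0.0714), and the difference was 6.31 points without 9725 and 49.5 without 05-1338. H3K4me1 and H3K4me2 differed by 21.3 points, less than the spread between antibodies (exact permutation p = 0.457, adjusted p = 0.457). With 4 against 3 antibodies that test cannot go below 0.0571. Single antibodies moved this difference widely, to 4.82 points without 05-1338, 8.98 without Active Motif 39635, 11.2 without 710796, 32.1 without 710795 and 47.97 without 9725. Leaving out any 1 of the 4 H3K4me1 antibodies raised the adjusted p of the first difference to 0.0714. That rise was fixed by group size, since 3 against 6 antibodies cannot give an exact permutation p below 0.0238. The first difference itself stayed between 41.95 and 65.1 points. Counting regions with 90% of their bases under a peak gave 33.1 points (20.3 for H3K4me2 against H3K4me3 and 12.8 for H3K4me1 against H3K4me2).

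Because the lists differ so much in extent, the share of H3K4me1-only bases under a peak was also set against the share of all distal bases. On the log2 scale this enrichment was 0.69 for Active Motif 39635 (85.9% of the regions' bases against 53.2% of distal bases), 0.98 for 5326 BF, 0.94 for A-4031-050 and 0.90 for 710795. The 4 H3K4me1 antibodies thus lay close together, at 0.88 ± 0.13 (SD, n = 4), although their shares of regions differed widely. H3K4me2 antibodies gave 0.85 (9725), 0.70 (710796) and 0.33 (05-1338), a mean of 0.63 ± 0.27 (n = 3). Among the H3K4me3 antibodies only 07-473 was above 0, at 0.51, and the other 5 ranged from -1.57 to -0.59, for a mean of -0.75 ± 0.72 (n = 6). H3K4me1 was higher than H3K4me3 by 1.63 (exact permutation p = 0.00952, adjusted p = 0.0286), and by 2.94 among regions of 1 kb to under 5 kb. Among regions at or above the median value it was higher by 1.32 and did not pass (exact permutation p = 0.0190, adjusted p = 0.0571). The choice of the regions as H3K4me1 peaks free of H3K4me3 favours this difference too. H3K4me2 was higher than H3K4me3 by 1.38 (exact permutation p = 0.0476, adjusted p = 0.0714), and by 2.39 at 1 kb to under 5 kb. H3K4me1 and H3K4me2 differed by 0.25 (exact permutation p = 0.171, adjusted p = 0.220), by 0.55 at these widths, by 0.14 at or above the median value and by 0.10 without 05-1338.

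The second comparison set the H3K4me1-only regions against distal peaks with H3K4me2. Every one of the 4 H3K4me1 lists covered fewer of the H3K4me1-only regions. The shares were 91.4% against 98.1% for Active Motif 39635, 62.1% against 83.6% for 5326 BF, 42.3% against 64.2% for A-4031-050 and 22.0% against 43.1% for 710795. The deficit was -17.8 points ± 7.42 (SD, n = 4). It was -10.8 points ± 10.7 for H3K4me2 (n = 3), from -0.423 for 05-1338 to -21.8 for 710796. It was -0.229 points ± 0.453 for H3K4me3 (n = 6), where both shares were at most 2.09% and a larger gap could not arise. The deficit differed between H3K4me1 and H3K4me3 by -17.6 points (exact permutation p = 0.00952, adjusted p = 0.0286). Since the H3K4me3 lists had little room for a deficit, tests against them cannot show that a deficit is particular to another mark's antibodies. The difference was smaller among regions of 1 kb to under 5 kb, at -8.35 points, and with 90% of the bases under a peak, at -9.43 points, both with the same p. With an overlap of 1 base the difference was -7.02 points and did not pass (exact permutation p = 0.190, adjusted p = 0.286). Between H3K4me2 and H3K4me3 it was -10.6 points (exact permutation p = 0.0476, adjusted p = 0.0714), and between H3K4me1 and H3K4me2 it was -6.99955 points (exact permutation p = 0.457, adjusted p = 0.457). The former was -5.09 points without 710796 and -6.02 at 1 kb to under 5 kb. The latter was -1.80 points without 05-1338, -10.7 without Active Motif 39635 and -12.5 without 710796, -2.33 at these widths and -2.08 with 90% of the bases.

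Width moved with these shares. For 710795, 8.30% of H3K4me1-only regions under 1 kb wide were under a peak, 17.6% from 1 to under 2 kb, 35.0% from 2 to under 5 kb and 64.8% of the wider ones. The peaks with H3K4me2 gave 12.7%, 22.5%, 40.6% and 77.4% in the same widths. At each width the H3K4me1-only share was the lower one, by less than the 21.1 points between the whole classes. Active Motif 39635 had no such slope, with 91.6% of the narrowest and 81.1% of the widest H3K4me1-only regions, and 98.0% and 98.1% of the peaks with H3K4me2.

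The lists were largely nested. Of the regions under a peak of 710795, 89.9% were also under one of A-4031-050. Of those under A-4031-050, 84.5% were under 5326 BF, and of those under 5326 BF, 92.3% were under Active Motif 39635. All 4 lists covered 15143 regions (15.7%, beside 24.8% of all distal peaks and 40.1% of those with H3K4me2), and at least 1 covered 97.3% (beside 98.3%). At least 1 of the 3 H3K4me2 lists covered 86.9% (beside 91% of all distal peaks), and at least 2 covered 12.4% (beside 19.7%).

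The 15143 regions in all 4 H3K4me1 lists were the wide, high ones, with a median width of 2833 bases and a median value of 13.9. They were also the closest to genes, at a median of 44738 bases from a coding TSS, and 99.4% of them were under a peak of 9725. At the other end, 2617 regions (2.71%) were in 0 of the 4 lists. These were narrow, with a median of 720 bases and 74.1% under 1 kb, and lay a median of 96687 bases from a TSS and 14095 from H3K4me2. Their median value of 11.1 was above that of the regions in 1 list (9.20) and in 2 lists (9.68). Peaks of 9725 covered 40.5% of them. The median distance to a TSS was shorter with each further list, from 94683 bases for 1 list to 69988 for 2 and 49845 for 3.

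The share under a peak changed with the authors' value in opposite directions for different antibodies. With the regions split by value into 4 bins of 24098, it went between the lowest and the highest bin from 1.41% to 62.6% for 710795, from 11.5% to 81.0% for A-4031-050 and from 43.6% to 82.9% for 5326 BF. It went from 79.7% to 92.8% for the H3K4me2 antibody 9725 and from 3.74% to 30.7% for 710796. Active Motif 39635 went the other way, from 98.1% through 95.9% and 92.7% to 79.1%. The H3K27me3 list did so too, from 99.3% to 87.7%. Regions of the highest bin were wider, with a median of 2496 bases against 919 in the lowest, and the part of width in these trends was not tested.

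**Figure D2:**
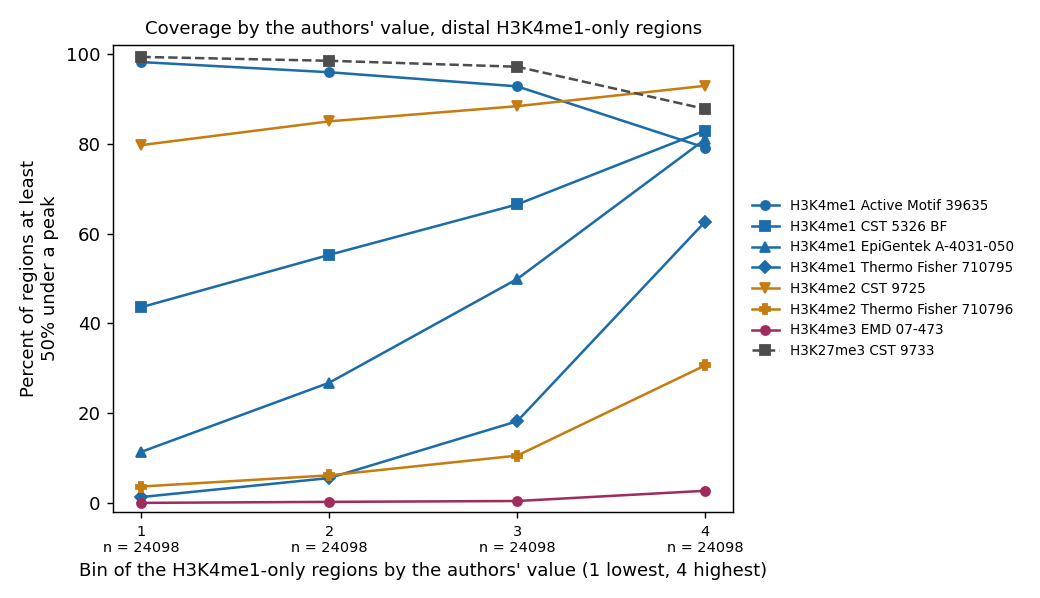
Percent of distal H3K4me1-only regions at least 50% under a peak of 8 antibodies' lists (vertical axis), in 4 bins of 24098 regions each by the authors' value (horizontal axis). The lines of 5326 BF, A-4031-050 and 710795 slope upwards, that of 710795 from 1.41% to 62.6%, while those of Active Motif 39635 and H3K27me3 (dashed) end lowest in the highest bin.

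Around the region centres the peak coverage of most lists stood above that of the flanks. For 5326 BF, 61.4% of centres and 48.7% of positions 5 kb away were under a peak, for A-4031-050 46.6% and 35.4%, and for 710795 28.6% and 21.1%. The H3K4me2 antibodies 9725 and 710796 gave 82.8% against 73.0% and 20.9% against 15.6%. For Active Motif 39635 the step was 1.87 points, from 89.5% to 91.4%. The flanks themselves were well covered, since 5326 BF covers 35.9% and Active Motif 39635 53.2% of all distal bases. Of the H3K4me3 lists, 07-473 had 5.03% at the centre and 3.84% at 5 kb, and the other 5 were lower at the centre than at 5 kb, by -0.143 to -0.0539 points. At the peaks with H3K4me2 the same 5 lists were higher at the centre, by 0.0322 to 0.753 points. Both classes were chosen as corrected H3K4me1 peaks with no corrected H3K4me3 inside them, a demand not made of the flanks. That choice favours a rise of H3K4me1 and a dip of H3K4me3 at the centre.

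**Figure D3:**
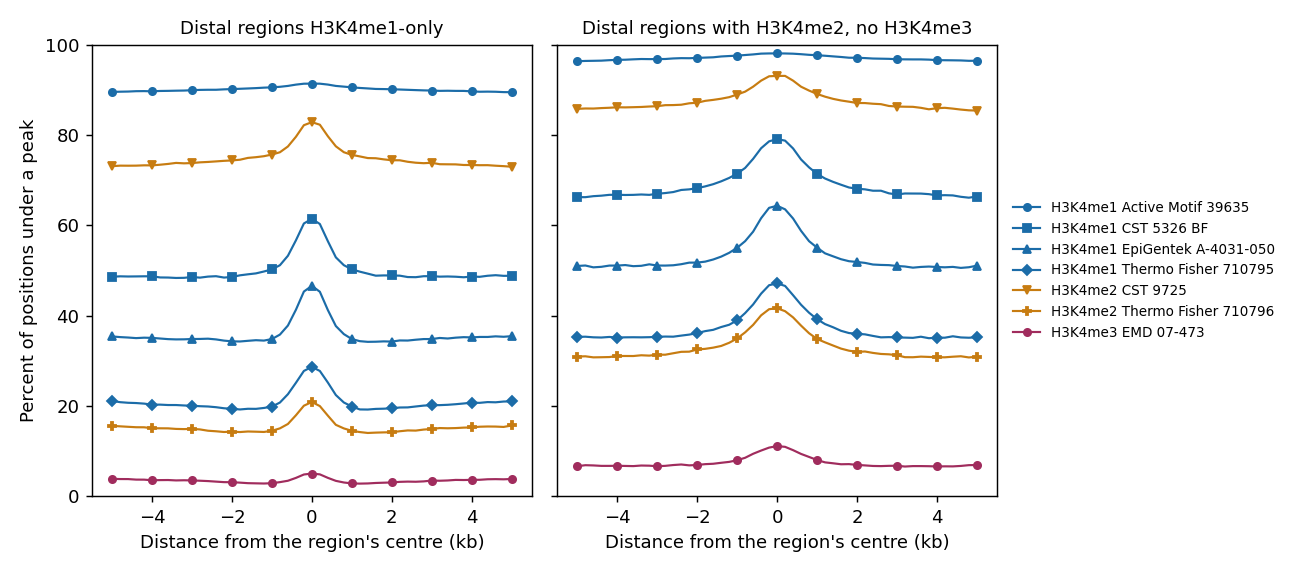
Percent of positions under a peak (vertical axis) at distances of up to 5 kb from the centres of H3K4me1-only regions (left) and of distal regions with H3K4me2 (right), for 7 antibodies. The centre of 5326 BF on the left stands at 61.4% above flanks of 48.7%, and the line of Active Motif 39635 is nearly flat.

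The antibodies that made the corrected lists are described without a test. Abcam ab8895 (H3K4me1) covered 92.0% of the regions. Abcam ab7766 (H3K4me2) covered 48.1% of them before correction, and 83.4% of the distal peaks with H3K4me2. Of the 2 H3K4me3 antibodies, ab12209 covered 0 and ab8580 covered 39.3% of the regions. A region could thus be H3K4me1-only after correction and lie under uncorrected peaks of ab7766 or ab8580.

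H3K27me3, deposited by Polycomb complexes, and H3K9me3, a mark of constitutive heterochromatin, had 1 list each and so no replicate. The H3K27me3 list covered 95.6% of the H3K4me1-only regions, 98.7% of the peaks with H3K4me2 and 97% of all distal peaks, but it also covered 69.3% of distal bases. The H3K9me3 list covered 96384 of the 96392 regions and 173100 of the 173114 distal peaks, which is 100% of each to 3 significant digits. At 96.7% of distal bases, that list could set no distal region apart from another.

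Regions far from H3K4me2 made up a group with its own profile. For the 25307 regions within 1 kb of a corrected H3K4me2 peak, 97.8% were under a peak of Active Motif 39635 and 15.7% under one of 710795. For the 2160 regions over 50 kb away the order was reversed, with 10.8% for Active Motif 39635 and 58.2% for 710795. The shares within 1 kb and over 50 kb away were 99.1% and 42.6% for H3K27me3, 88.9% and 69.2% for 9725, and 62.8% and 59.8% for 5326 BF. These distant regions had a median value of 18.3 and a median width of 2363.5 bases, against 9.55 and 1142 bases within 1 kb.

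**Figure D4:**
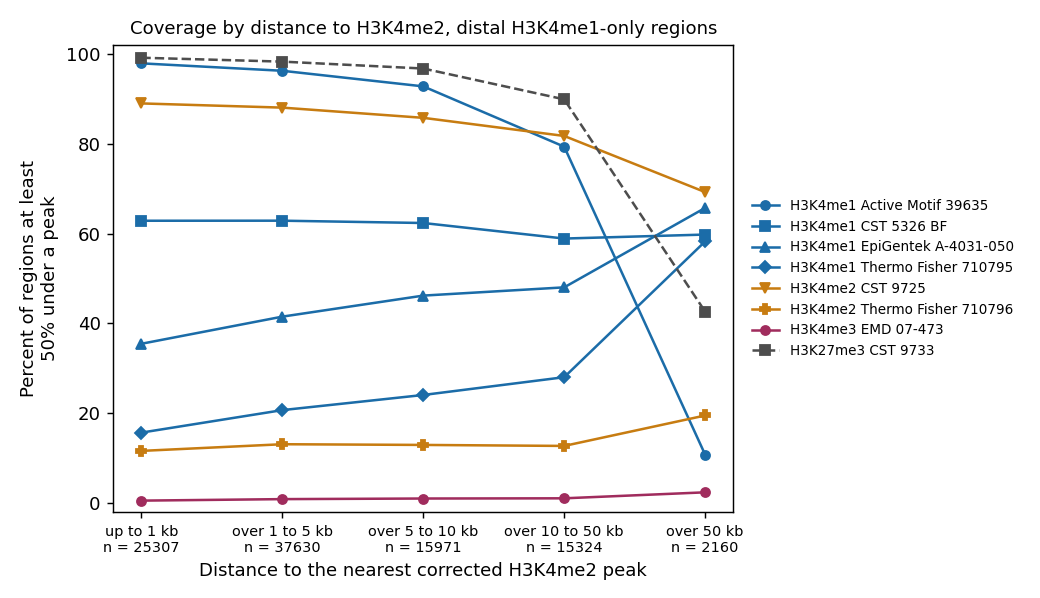
Percent of distal H3K4me1-only regions at least 50% under a peak of 8 antibodies' lists (vertical axis) by the distance to the nearest corrected H3K4me2 peak (horizontal axis, with the number of regions in each class). Active Motif 39635 goes from 97.8% to 10.8% and H3K27me3 (dashed) from 99.1% to 42.6%, while 710795 goes from 15.7% to 58.2%.

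The regions were unevenly spread over chromosomes. Per distal Mb there were 36.7 on average, 57.2 on chromosome 7 and 54.8 on chromosome 1, but 13.1 on chromosome 22, 7.60 on chromosome 14, 7.41 on chromosome 13 and 2.87 on chromosome X. On chromosomes 14, 22 and X the few regions had high values, with medians of 19.1, 17.6 and 20.6, and large widths, with medians of 3245, 3144 and 3422 bases. Chromosome 13 differed, with a median value of 7.60 and a median width of 1141.5 bases. Distal peaks with H3K4me2 were rarer still on chromosome X, at 0.216 per distal Mb, so that 92.4% of its distal peaks were H3K4me1-only.

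The independent H3K4me1 lists were thin on chromosomes 13, 14 and X, and Active Motif 39635 on chromosome 22 as well. Active Motif 39635 covered 82.2% of distal bases on chromosome 1 but 3.86% on chromosome 13, 2.69% on 14, 16.7% on 22 and 0.646% on X. The shares for 5326 BF were 54.9%, 10.5%, 17.2%, 34.6% and 7.82%, so that on chromosome 22 it stood close to its 35.9% of all distal bases. On chromosomes 13, 14, 22 and X, A-4031-050 covered 11.0%, 18.7%, 33.7% and 9.21% of distal bases, beside 30.5% of all distal bases. For 710795 these were 8.43%, 14.9%, 25.4% and 7.17%, beside 22.1%. The H3K4me2 list of 9725 was lower there too, at 16.3% on 13, 24.8% on 14 and 12.0% on X, beside 48.8%. Of the 1461 regions on chromosomes 14, 22 and X, 15.0% were under a peak of Active Motif 39635 and 68.0% under one of 710795. These 3 chromosomes held 576 of the 2160 regions over 50 kb from H3K4me2, and chromosome 13 held 175. Among the 1409 on the remaining chromosomes, Active Motif 39635 covered 15.6%, 710795 covered 51.1% and the H3K27me3 list covered 42.2%. The H3K27me3 list also differed by chromosome. It covered 66.5% of the H3K4me1-only regions on chromosome 13, 33.9% on 14, 27.5% on 22 and 100% on X. The part of coverage per chromosome in the values and in these shares was not tested.

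**Figure D5:**
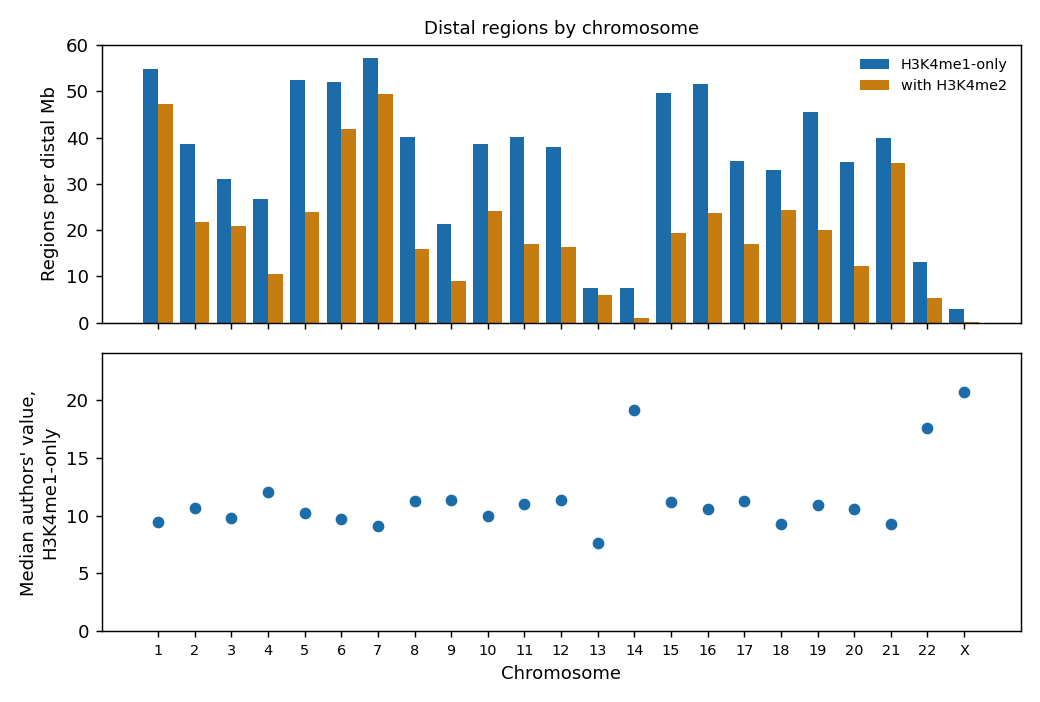
Distal H3K4me1-only regions and distal regions with H3K4me2 per distal Mb (top, bars from 0) and the median authors' value of the H3K4me1-only regions (bottom) on each chromosome (horizontal axis). Chromosomes 14, 22 and X combine few regions, 7.60, 13.1 and 2.87 per distal Mb, with the highest median values, 19.1, 17.6 and 20.6.

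Base composition and motifs were read in the central 300 bases, with 261615 windows of that length, 1 every 10 kb of distal sequence, as the background. Mean GC content was 43.0% in the H3K4me1-only regions, 42.8% in peaks with H3K4me2 and 40.3% in the background. CpG dinucleotides numbered 0.982, 1.02 and 0.903 per 100 bases. AP-1 and NF-E2 letters were in 5.83% of the H3K4me1-only windows, 5.74% of those with H3K4me2 and 4.46% of the background. The E-box CAGCTG was in 12.7%, 12.1% and 9.65%, and CACGTG in 3.27%, 3.25% and 2.67%. The GATA letters AGATAA were in 20.9%, 20.7% and 21.4%. KLF, RUNX, ETS and CTCF letters were in 2.52%, 5.75%, 0.163% and 2.98% of the H3K4me1-only windows, and in 2.26%, 5.77%, 0.121% and 2.17% of the background.

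Since GC content moves the chance of a match, windows of 40 to 50% GC were compared as well. There the AP-1 and NF-E2 letters were in 6.60% of H3K4me1-only windows and 5.37% of the background, and the GATA letters in 19.2% and 17.1%. The CAGCTG letters were in 13.3% and 11.9%, and the KLF letters in 2.80% and 3.26%. In the highest of the 4 bins by value, GATA letters were in 22.4% and AP-1 and NF-E2 letters in 6.72% of windows. The H3K4me1-only regions and the peaks with H3K4me2 thus differed by under 1 percentage point for each motif over all windows. A match is a description of letters and not a bound site.

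Each region was assigned to the coding gene with the nearest TSS, so a gene with a wide territory can gather more regions. At least 1 H3K4me1-only region was nearest to 10109 of 19618 coding genes (51.5%), and 42.5% had at least 1 peak with H3K4me2. The genes with the most were CNTNAP2, a neurexin family gene, with 397, the glypican gene GPC5 with 327, the neurodevelopmental gene AUTS2 with 316 and BRINP3 with 262. They were followed by AJAP1 with 199, the splicing factor gene RBFOX1 with 192, B3GALT2 and the glutamate receptor gene GRM7 with 190 each, and the cadherin gene CDH6 and the phospholipase gene PLA2G4A with 180 each. Few of these regions were in all 4 H3K4me1 lists, 4 of 397 for CNTNAP2 and 1 of 327 for GPC5, but 57 of 262 were for BRINP3.

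Of 34 erythroid genes, 13 (38.2%) had at least 1 H3K4me1-only region, and 18 had a peak with H3K4me2. GYPC, which encodes glycophorin C of the red cell membrane, had 53, of which 16 were in all 4 H3K4me1 lists. Its region of highest value (18.8) was intergenic at chr2:126737474-126740386, 1618 bases from H3K4me2, and was under a peak in 4 of 4 H3K4me1 and 2 of 3 H3K4me2 lists. BCL11A, the repressor of fetal globin genes, had 52, of which 5 were in all 4 lists. Its highest region (17.2, chr2:60587844-60589873) was in 4 of 4 H3K4me1 lists and 1 of 3 H3K4me2 lists. ANK1 and TFRC had 3 each. The regulators GATA1, TAL1, KLF1 and NFE2 and the fetal globin genes HBG1 and HBG2 had 0, and these 6 also had 0 peaks with H3K4me2. The median erythroid gene had 0 regions, beside 1 over all coding genes.

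Of 20 megakaryocyte genes, 13 (65.0%) had a region. The homeodomain gene MEIS1 and the regulator RUNX1 had 54 each, and THBS1 had 48. RUNX1 had more peaks with H3K4me2, 128, whereas MEIS1 had 8. Among 20 myeloid genes 10 had a region, led by the monocyte regulator IRF8 with 40 and the receptor gene CSF3R with 28. Among 24 lymphoid genes 14 had one, led by the T cell regulator GATA3 with 41 and the B cell regulator EBF1 with 35. The highest region at EBF1 (21.9, chr5:159126700-159128819) was under a peak in 4 of 4 H3K4me1, 2 of 3 H3K4me2 and 1 of 6 H3K4me3 lists.

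Genes of other tissues held regions as well. Of 20 neural genes, 9 had at least 1, with a median of 0 per gene, and CNTNAP2 with 397 and RBFOX1 with 192 held most of the list's 735. Of 20 liver genes, 11 did, with APOB, the lipoprotein gene, at 15 and TTR, the thyroxine carrier gene, at 13. Of 28 cell cycle genes, 10 did, with MYC at 49 and CCND1, the cyclin D1 gene, at 15. Of 19 genes of H3K4 methylation, 9 did, with the complex subunit genes PAXIP1 at 15 and WDR5 at 7. The shares of the 8 lists ran from 35.7% to 65.0% around the 51.5% of all coding genes.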

How the data were processed

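Peak lists of 17 H3K4 methylation antibodies, 1 H3K9me3 and 1 H3K27me3 antibody in K562 cells, and 3 corrected lists, were used as the authors deposited them. Reads were processed with Bowtie2, SAMtools, bedtools and MACS2 on GRCh38 (hg38), per the submitters' processing notes. The sources used here give no versions, calling settings or rule for a high-confidence peak. The authors made 1 list per antibody. The authors' deposited value per peak is a score with no header, and 5 lists, those of ab8580, C15410003, A-4033-050, H3K9me3 and H3K27me3, hold positions only. Read depth is unknown, so a region without a listed peak is not shown to be unmodified.

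From these, Python 3.11.15, numpy 2.4.6, scipy 1.17.1 and pysam 0.24.0 computed overlaps, distances to GENCODE release 44 coding TSSs (78281 positions of 19618 genes), and motif matches in hg38. The lists of ab8895, ab7766, ab12209 and ab8580 made the corrected lists and entered no test. The other 13 H3K4 antibodies, grouped by the target in the labels, gave 1 value each. Means were compared by exact two-sided permutation tests over antibodies, adjusted by Benjamini-Hochberg over 9 tests. Overlap code was tested on simulated peaks. Regions, gene lists and tests were chosen with earlier results of these data known. Named regions were the 6 of highest value and the 4 widest. Named genes were the 2 with most regions in each of 8 gene lists and the 10 with most over all coding genes, while other list genes were chosen after their values were seen. Alternatives covered the overlap rule, TSS set and distance, gap to H3K4me2, value, width, chromosomes, input, amplification cycles and single antibodies. The share of repeat-masked bases was not computed. Some genes and sequences that these rules select are not reported here.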

Additional observations from a re-analysis of the deposited data

Results flagged for a closer look

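In groups of 4 to 6 antibodies, the highest or lowest value was set against the others by Dixon's ratio. Of 7 groups examined, 4 had a value far from the rest, and chance marks about 1 group in 20.

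Of the 4, 2 concern Active Motif 39635 among the H3K4me1 antibodies. Its share of H3K4me1-only regions minus that of distal peaks with H3K4me2 was -6.70 points, while the other 3 antibodies lay between -21.9 and -21.1. Its median authors' value over the regions was 24.5, against 9.34 to 10.1 for the others. The gap is one of the whole list, whose median over all its peaks was 25.2, against 8.25 to 9.01 for the others. Since the value has no header, it is not known whether different lists share a scale. This list has 39010 peaks that cover 1593 Mb, the most of the 4.

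The other 2 concern EMD Millipore 07-473 among the H3K4me3 antibodies. It covered 0.940% of the H3K4me1-only regions, against 0.00104% to 0.0114% for the other 5. Its share of these regions minus that of the peaks with H3K4me2 was -1.15 points, against -0.0807 to -0.0181. This list has 233923 peaks that cover 165.5 Mb, the most of the 6.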

How the results depend on the processing

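Each of the 9 tests was repeated under other choices. Together with counts of regions this gave 197 alternative values, of which 174 were labelled unchanged. For a test the label means the same direction and side of the threshold, and for a count a similar size. This tally is not a measure of robustness. The log2 enrichment does not use the overlap rule, so it could not change with it. Tests of H3K4me1 against H3K4me2 had too few antibodies to pass under any choice. With an overlap of 1 base, the deficit against peaks with H3K4me2 for H3K4me1 against H3K4me3 was -7.02 points (exact permutation, adjusted p = 0.286), and for H3K4me1 against H3K4me2 it turned from -6.99955 to 3.30 points (adjusted p = 0.686). The cause was not tested. At or above the median value, the enrichment of H3K4me1 against H3K4me3 was 1.32 (exact permutation, adjusted p = 0.0571). Of 96392 regions, 48196 had such a value and 50424 were 1 kb to under 5 kb wide.

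With AR16 input antibodies alone, H3K4me1 against H3K4me3 gave 54.2 points in share, -17.5 points in deficit and 1.32 in log2 enrichment, and with 8 amplification cycles alone 54.2, -17.5 and 1.58. The adjusted p was 0.0857 in each, since 4 against 4 antibodies cannot give less than 0.0286 unadjusted. Leaving out 1 antibody in turn, the 3 values ran from 41.95 to 65.1 points, from -21.3 to -16.2 points and from 1.47 to 1.89. Their adjusted p ran from 0.0476 to 0.0714 (exact permutation). The higher one applied whenever an H3K4me1 antibody was left out, since 3 against 6 antibodies cannot give less than 0.0238 unadjusted. Leaving out chromosomes 13, 14, 22 and X, and leaving out regions that hold a TSS, were chosen after seeing the data, and both kept every direction and call. No paired analysis was possible because replicate numbers only name antibodies. Read depth is unknown, so it sets no limit that could be given.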

Other observations

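Regions over 50 kb from a corrected H3K4me2 peak made up 54.1% of the H3K4me1-only regions on chromosome X, 35.98% on chromosome 14, 30.3% on chromosome 22 and 25.4% on chromosome 13, against 0.153% on chromosome 1. Chromosomes 2 and 3 held 247 and 254 of them, more in number than chromosome X with 223. On chromosome 13 the authors' value of the regions had a 10th percentile of 6.07, the lowest of the chromosomes examined, and a 90th percentile of 26.1.

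Within single lists, the peaks over H3K4me1-only regions had lower authors' values than those over distal peaks with H3K4me2. The medians were 24.5 and 25.6 for Active Motif 39635, 9.55 and 10.9 for Cell Signaling Technologies 5326 BF, 9.34 and 11.0 for EpiGentek A-4031-050 and 10.1 and 11.6 for Thermo Fisher 710795. For the H3K4me2 antibodies they were 10.3 and 12.3 (Cell Signaling Technologies 9725), 9.40 and 11.0 (Thermo Fisher 710796) and 12.1 and 14.0 (EMD Millipore 05-1338). The H3K4me3 list of EMD Millipore 07-473 went the same way, with 8.23 over 906 regions and 10.9 over 1204. The value was the lower one over H3K4me1-only regions in each of these lists, which was not tested. The peaks with H3K4me2 were wider, with a median of 2750 bases against 1255, and the part of width was not tested either.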
